A study of Mus musculus with 5 samples.

Results

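The oxidative phosphorylation subunits are the proteins of the 5 enzyme complexes of the inner mitochondrial membrane, and their transcripts were taken from the deposited table by name and by chromosome. Members were the protein-coding genes whose symbols begin with Nduf, Uqcr, Cox4 to Cox8 or Atp5, the genes Sdha, Sdhb, Sdhc and Sdhd, and every protein-coding gene of the mitochondrial chromosome. The rule found 105 of the 35275 genes in the table, 92 of them nuclear and 13 mitochondrial. No measured value entered the rule. It also takes in 10 genes that are not subunits, namely the complex I assembly factors Ndufaf1 to Ndufaf7, the supercomplex factor Cox7a2l, and Atp5s and Atp5sl.

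RNA was sequenced from cells sorted out of mouse spleen: 1 library of CD8 Treg, 2 of CD4 Treg and 2 of CD49lo. All 5 came from wild-type C57BL/6 mice aged 3 months, and all were stained and sorted after an enrichment for CD8 cells. The series compares CD4+ and CD8+ regulatory T cells, which restrain immune responses, with CD8+ cells that resemble effectors, which the CD49lo libraries are taken to be by elimination. Separate animals behind the replicates are not mentioned in the labels, so each p-value is set against a spread among libraries that may be technical only, and every CD8 Treg value rests on n = 1.

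Complexes I to IV pass electrons from NADH and succinate to oxygen and, except for complex II, pump protons, while complex V uses the proton gradient to make ATP. All subunits of complex II and most of the others are encoded in the nucleus, whereas the mitochondrial genome encodes core subunits of complexes I, III, IV and V. Mitochondrial genes are transcribed as long precursors from both strands of a circular genome and then cut into single RNAs, with mt-Nd6 the protein-coding gene on the light strand. In T cells these complexes are known to support activation, memory and regulatory function.

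The CD8 Treg library held 6073243 reads in genes, the CD4 Treg libraries 6203090 and 5441444, and the CD49lo libraries 8354971 and 6564411. The noncoding transcript Gm26917 took 6.86% of the reads in CD8 Treg and between 3.33% and 4.16% in the other libraries, and cytosolic ribosomal protein genes took 14.7% in CD8 Treg and between 9.72% and 10.9% in the others. Foxp3, the regulator that defines CD4 Treg, had 0.387 RPKM in CD8 Treg, 146.3 and 145.7 RPKM in CD4 Treg, and 1.66 and 0.795 RPKM in CD49lo. Cd8a had 187 RPKM in CD8 Treg, 0.412 and 0.352 RPKM in CD4 Treg, and 215 and 255 RPKM in CD49lo. RPKM are reads per kilobase of gene, scaled to the reads of the library. In a bulk library, fewer cells of a type and less RNA per cell cannot be told apart.

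Stretches of the mitochondrial genome also occur on chromosome 1, and this bears on which mitochondrial levels can be read. The first 90 bases of mt-Co2 and of its chromosome 1 copy Gm28661 are shown because they are identical, so that a read from one cannot be placed apart from the other. The stretches of mt-Co1 and mt-Nd4 are shown because the copied block ends inside these genes, and there capitals mark the bases that match the copy, with lower case for bases outside the copy and for the 1 base in mt-Co1 that differs. Positions are in GRCm38/mm10.
mt-Co2, chrM:7013-7102, plus strand: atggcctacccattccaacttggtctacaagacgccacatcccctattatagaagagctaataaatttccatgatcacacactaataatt
Gm28661, chr1:24615476-24615565, minus strand: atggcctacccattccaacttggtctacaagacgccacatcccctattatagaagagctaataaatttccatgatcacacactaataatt
mt-Co1, chrM:6360-6449, plus strand: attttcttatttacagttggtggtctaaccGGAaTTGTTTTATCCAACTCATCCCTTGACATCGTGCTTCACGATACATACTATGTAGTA
mt-Nd4, chrM:10983-11072, plus strand: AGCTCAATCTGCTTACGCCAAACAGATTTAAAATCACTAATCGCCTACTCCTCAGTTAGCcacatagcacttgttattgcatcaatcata

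The 7 annotated copies lie within chr1:24611535-24616197, in the order of the mitochondrial genes when read along the minus strand. No aligned base differed between original and copy for mt-Co2, mt-Co3, mt-Atp6 and mt-Nd4l. Of the 50-base words in these genes, 100% were shared with another annotated transcript for mt-Co2, 99.9% for mt-Co3, 99.5% for mt-Atp6, 98.8% for mt-Nd4l and 98.0% for mt-Nd3. mt-Nd1 lies at chrM:2751-3707, mt-Nd2 at chrM:3914-4951, mt-Nd4 at chrM:10167-11544 and mt-Nd6, on the minus strand, at chrM:13552-14070. The share was 62.2% for mt-Nd4, 51.1% for mt-Co1, 8.19% for mt-Nd2 and 7.61% for mt-Nd5, and it was 0 for mt-Nd1, mt-Nd6, mt-Cytb and mt-Atp8. No copy of mt-Atp8 is annotated, but an unannotated gap of 233 bases lies between the copies on either side of it.

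The mitochondrial transcripts split into a high and a low group, which followed the shares only in part. The low group held the genes shared nearly in full and mt-Atp8, which shares no word, and the high group included the partly shared mt-Co1 and mt-Nd4. mt-Co1, the catalytic core of complex IV, had 3941 RPKM in CD8 Treg, 3461 and 3953 RPKM in CD4 Treg, and 3618 and 3489 RPKM in CD49lo. mt-Co2, which takes electrons from cytochrome c in the same enzyme, had 28.6 RPKM in CD8 Treg, 13.9 and 26.6 RPKM in CD4 Treg, and 17.7 and 30.1 RPKM in CD49lo. Both are cut from the same strand, yet mt-Co1 stood between 116 and 249 times above mt-Co2 in every library.

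mt-Co3, another core subunit of complex IV, had 26.9 RPKM in CD8 Treg, 14.8 and 15.5 RPKM in CD4 Treg, and 12.2 and 30.9 RPKM in CD49lo. mt-Atp6, the proton channel subunit of complex V, had 73.5 RPKM in CD8 Treg, 60.4 and 52.6 RPKM in CD4 Treg, and 61.5 and 75.6 RPKM in CD49lo. mt-Nd4l and mt-Nd3, membrane subunits of complex I, stayed between 1.03 and 11.8 RPKM in all libraries. The 6 low genes, mt-Atp8 among them, made up between 0.945% and 1.51% of the summed mitochondrial RPKM in a library.

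The chromosome 1 copies stood above their mitochondrial originals where sharing was near complete. Gm28661 had 88.5 RPKM in CD8 Treg, 49.7 and 60.2 RPKM in CD4 Treg, and 61.5 and 100.2 RPKM in CD49lo, above mt-Co2 in each library. Gm28438 had 115 RPKM in CD8 Treg, 68.2 and 60.2 RPKM in CD4 Treg, and 79.8 and 154 RPKM in CD49lo, against at most 5.25 RPKM for mt-Nd3. How reads that match both places were counted is not given in the sources used here, so its part in the low levels was not tested, and the low genes are reported as uncertain. mt-Atp8, which shares no annotated word, was low as well, with 1.61 RPKM in CD8 Treg, 4.74 and 3.60 RPKM in CD4 Treg, and 5.28 and 8.96 RPKM in CD49lo.

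**Figure D1:**
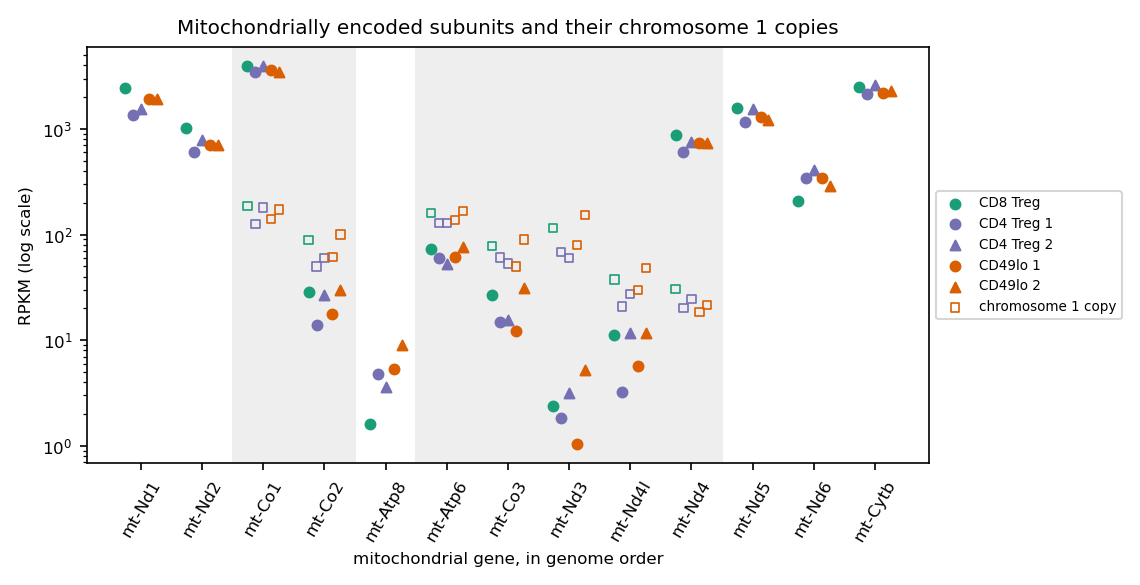
RPKM on a log scale (vertical axis) of the 13 mitochondrial genes in genome order (horizontal axis), with 1 filled symbol per library and open squares for the chromosome 1 copy in the same library, coloured by group. Grey bands mark the genes that share over 50% of their 50-base words with another transcript. mt-Co2, mt-Co3, mt-Nd3 and mt-Nd4l lie under 31 RPKM in every library, below their copies.

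For mt-Nd1, mt-Nd2, mt-Nd4 and mt-Nd5, core subunits of complex I, the CD8 Treg library was the highest. mt-Nd1, a membrane subunit next to the quinone site, had 2419 RPKM in CD8 Treg, 1349.8 and 1549 RPKM in CD4 Treg, and 1924 and 1903 RPKM in CD49lo. CD8 Treg was above all 4 other libraries, as for 15.3% of all genes tested. Both CD4 Treg libraries were below both CD49lo libraries, as for 33.7% of all genes tested. mt-Nd2, a proton-pumping subunit, had 1023 RPKM in CD8 Treg, 609 and 791 RPKM in CD4 Treg, and 712 and 704 RPKM in CD49lo, where the CD4 Treg and CD49lo libraries overlap.

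mt-Nd4 and mt-Nd5 are further proton-pumping subunits. mt-Nd4 had 883 RPKM in CD8 Treg, 608 and 759.5 RPKM in CD4 Treg, and 741 and 735 RPKM in CD49lo, and mt-Nd5 had 1575 RPKM in CD8 Treg, 1162 and 1546 RPKM in CD4 Treg, and 1307 and 1223 RPKM in CD49lo. For both genes CD8 Treg was the highest library, and the CD4 Treg and CD49lo libraries overlapped. mt-Cytb, the complex III subunit that carries both quinone sites, had 2475 RPKM in CD8 Treg, 2133 and 2582 RPKM in CD4 Treg, and 2186 and 2267 RPKM in CD49lo, with the groups overlapping.

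mt-Nd6 ran the other way. It had 209.7 RPKM in CD8 Treg, 340.4 and 410.4 RPKM in CD4 Treg, and 339.9 and 288 RPKM in CD49lo, so that CD8 Treg was the lowest library. The ratio of mt-Nd1 to mt-Nd6 was 11.5 in CD8 Treg, 3.96 and 3.77 in CD4 Treg, and 5.66 and 6.61 in CD49lo. The end of mt-Nd5 overlaps that of mt-Nd6 on the opposite strand, and since the use of strand in counting is not given in the sources used here, reads of the overlap cannot be told apart.

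Differences between groups were tested with limma on log2(RPKM + 0.5) over all 13298 genes with enough reads, and a gene is called at a Benjamini-Hochberg adjusted p under 0.05. All 13 mitochondrial and 84 of the 92 nuclear members were tested. The 3 comparisons share libraries with each other, so their results are not independent. Every call below was lost when either CD49lo library was left out, because no gene at all was called in those fits, while 3578 to 3636 genes had an unadjusted p under 0.05 in CD4 Treg against CD49lo and in CD8 Treg against CD4 Treg, and 2210 and 2244 in CD8 Treg against CD49lo. When genes with no variance were kept out of the variance prior, a change made after these counts had been seen, the same fits called between 3 and 22 members.

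In CD8 Treg against CD49lo, 1 of 97 tested members was called, which is 1.03%, against 5.16% of all genes tested. Over all genes 1.65% were called higher and 3.50% lower. The member was mt-Nd2, higher by 0.67 ± 0.15 on the log2 scale (SE, adjusted p = 0.0409), and mt-Nd1 was 0.48 ± 0.12 (adjusted p = 0.0642). The mt-Nd2 call was lost without TMM scaling (0.53, adjusted p = 0.0776), with a pseudocount of 1 (adjusted p = 0.0562), with no filter (adjusted p = 0.27), with a filter of 1 RPKM (adjusted p = 0.162), with a prior on RPKM (adjusted p = 0.121) and without CD4 Treg replicate 1 (adjusted p = 0.0977) or 2 (adjusted p = 0.0948). It held with the other scalings and with limma-voom. None of the 84 nuclear members was called with limma or with limma-voom, and 4 higher and 5 lower had an unadjusted p under 0.05, which 7.44% and 11.7% of all genes tested had.

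In CD8 Treg against CD4 Treg, 8 of 97 members were called, which is 8.25%, against 16.7% of all genes tested, of which 8.47% were higher and 8.25% lower. Among mitochondrial members mt-Nd1 was higher by 0.85 ± 0.12 (adjusted p = 0.0017), mt-Nd2 by 0.67 ± 0.15 (adjusted p = 0.0172) and mt-Nd4 by 0.49 ± 0.14 (adjusted p = 0.046), and mt-Nd6 fell by 0.72 ± 0.17 (adjusted p = 0.0189). All 4 belong to complex I, as do 7 of the 13 mitochondrial members, so their complex is no result by itself. The 4 are 30.8% of the mitochondrial members. On RPKM divided by the TMM factors CD8 Treg was also highest for mt-Cytb of complex III and mt-Co1 of complex IV, which were not called. The mt-Nd4 call was lost with a pseudocount of 1 (adjusted p = 0.0582), without TMM scaling (0.38, adjusted p = 0.1), with the RPKM prior (adjusted p = 0.109), with a filter of 1 RPKM (adjusted p = 0.137) and with no filter (adjusted p = 0.244). The mt-Nd2 call was lost with the RPKM prior (adjusted p = 0.0599) and with both filters (adjusted p = 0.0947 and 0.194), and the mt-Nd6 call with both filters (adjusted p = 0.0784 and 0.176). Without a filter mt-Nd1 was lost as well (adjusted p = 0.0651). Without CD4 Treg replicate 1 none of the 8 was called, and without CD4 Treg replicate 2 the calls were mt-Nd1 and mt-Nd2.

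Of the nuclear members, Ndufa10, a membrane-arm subunit of complex I, had 50.2 RPKM in CD8 Treg, 33.4 and 33.3 RPKM in CD4 Treg, and 43.1 and 39.3 RPKM in CD49lo, and was higher in CD8 Treg than in CD4 Treg by 0.69 ± 0.16 (adjusted p = 0.0186). Cox8a, a small subunit of complex IV, was higher by 0.57 ± 0.15 (adjusted p = 0.0315), a call that was lost without TMM scaling (0.46, adjusted p = 0.0689). Atp5sl had 10.8 RPKM in CD8 Treg, 5.13 and 5.62 RPKM in CD4 Treg, and 9.68 and 7.66 RPKM in CD49lo, and was higher by 1.04 ± 0.29 (adjusted p = 0.0391), a call also lost without scaling (adjusted p = 0.0554), with the RPKM prior (adjusted p = 0.0582) and with both filters (adjusted p = 0.079 and 0.116). Ndufaf3, an assembly factor of complex I, had 2.16 RPKM in CD8 Treg from 14 reads, 9.22 and 14.8 RPKM in CD4 Treg, and 6.18 and 5.72 RPKM in CD49lo, and fell by 2.11 ± 0.43 (adjusted p = 0.00987). The Ndufaf3 call was lost with limma-voom (adjusted p = 0.0927) and with no filter (adjusted p = 0.0968), and the Ndufa10 call with no filter (adjusted p = 0.0733).

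In CD4 Treg against CD49lo, 5 of 97 members were called, all lower in CD4 Treg, which is 5.15%, against 22.1% of all genes tested, of which 9.39% were higher and 12.7% lower. Cox8a had 131 and 134 RPKM in CD4 Treg against 188 and 198 RPKM in CD49lo, a log2 fold change of -0.51 ± 0.12 (adjusted p = 0.0155). Cox7c, another small subunit of complex IV, had 56.2 and 51.8 RPKM in CD4 Treg against 70.7 and 96.7 RPKM in CD49lo, a log2 fold change of -0.58 ± 0.18 (adjusted p = 0.0474). The Cox7c call was lost with limma-voom (adjusted p = 0.0504), a pseudocount of 1 (adjusted p = 0.0529), the RPKM prior (adjusted p = 0.0534), a filter of 1 RPKM (adjusted p = 0.109) and no filter (adjusted p = 0.231). For both genes the CD4 Treg libraries lay below both CD49lo libraries, as for 33.7% of all genes tested, and 26.5% of all genes lay above. This order comes from the libraries that gave the calls and is no separate support. Cox7c shares 22.1% of its 50-base words with other transcripts.

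Uqcrfs1, the Rieske iron-sulfur protein of complex III, had 41.3 and 42.3 RPKM in CD4 Treg against 57.1 and 63.3 RPKM in CD49lo, a log2 fold change of -0.49 ± 0.14 (adjusted p = 0.0292). Atp5h, a stator subunit of complex V, had 323 RPKM in both CD4 Treg libraries against 423 and 449.7 RPKM in CD49lo, a log2 fold change of -0.41 ± 0.10 (adjusted p = 0.0154). The log2 fold change of mt-Nd1 was -0.38 ± 0.10 (adjusted p = 0.0254). The mt-Nd1 call was lost with a filter of 1 RPKM (adjusted p = 0.081) and with the RPKM prior (adjusted p = 0.0902). None of the 5 was called without a filter, where the adjusted p lay between 0.051 and 0.231, or when either CD4 Treg library was left out.

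**Figure D2:**
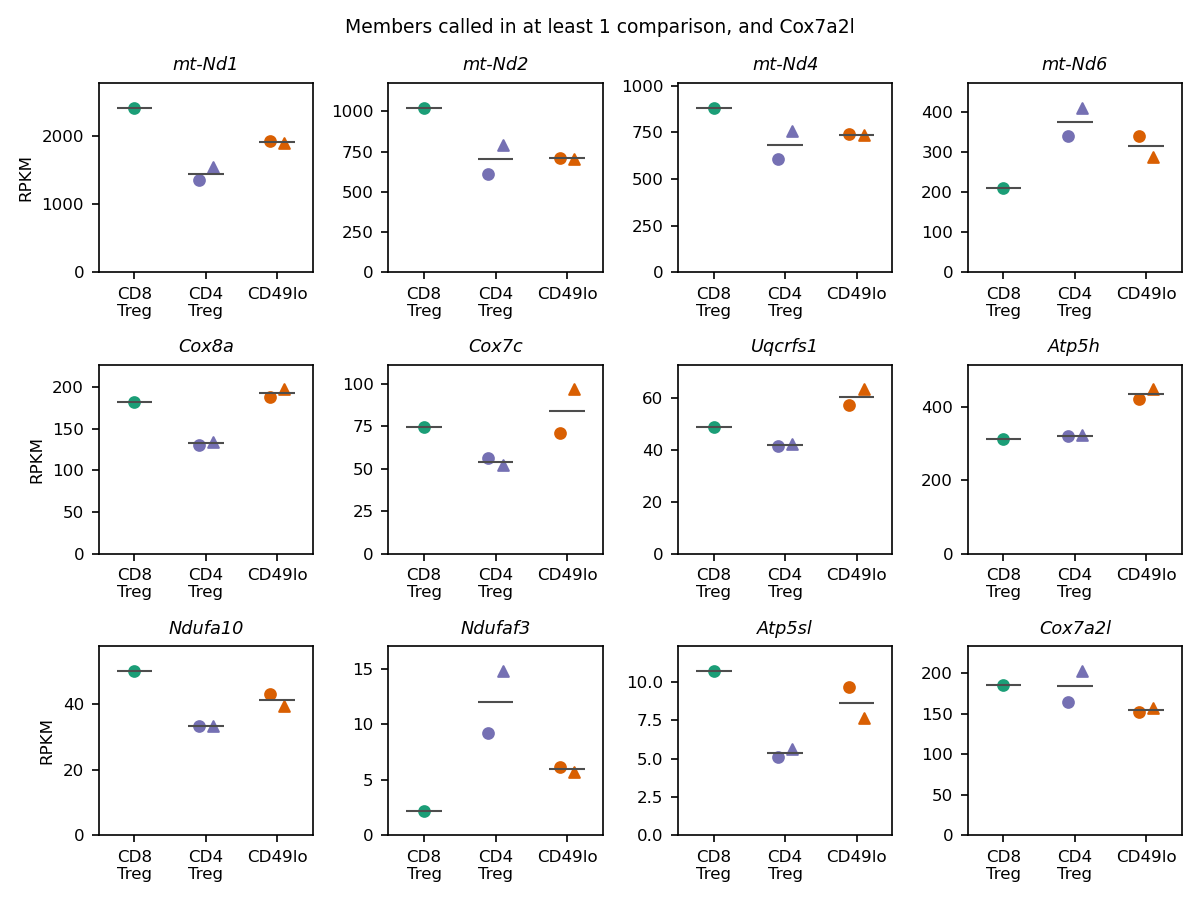
RPKM (vertical axis, from 0) of the 11 members called in at least 1 comparison and of Cox7a2l, with 1 point per library, circles for replicate 1, triangles for replicate 2 and a line at the group mean. mt-Nd6 and Ndufaf3 are lowest in CD8 Treg, whereas mt-Nd1, mt-Nd2 and mt-Nd4 are highest there.

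The CD49lo and CD4 Treg libraries also differed in genes listed as markers of other cell types and in cell cycle genes. The lists do not tell whether other cells or the sorted T cells themselves held these transcripts. The 13 B cell markers summed to 1594 RPKM in CD8 Treg, 555 and 612 RPKM in CD4 Treg, and 2951 and 2669 RPKM in CD49lo, and 12 of them were called lower in CD4 Treg than in CD49lo. Most of the CD4 Treg sums was Ighm, with 285 RPKM in CD8 Treg, 444 and 521 RPKM in CD4 Treg, and 518 and 336 RPKM in CD49lo. The myeloid markers summed to 456 RPKM in CD8 Treg, 16.9 and 3.25 RPKM in CD4 Treg, and 611 and 578 RPKM in CD49lo, and 10 of the 11 tested were called lower. All 10 NK cell markers were called lower in CD4 Treg, where Ncr1 and Klrd1 were at 0, and 23 of 24 cell cycle genes were lower there. Against CD4 Treg, 12 B cell, 10 myeloid and 10 NK cell markers were called higher in CD8 Treg. Against CD49lo, 15 of 24 cell cycle genes were called lower in CD8 Treg, with sums of 259 RPKM in CD8 Treg and 773 and 550.0 RPKM in CD49lo, and 4 of 9 dendritic cell markers were lower. The part of these transcripts in the results on members was not tested.

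The medians of mitochondrial and nuclear members lay on the same side of 0 in both comparisons with CD4 Treg, and in CD8 Treg against CD49lo on opposite sides, with the nuclear median beside that of all genes. In CD8 Treg against CD49lo, 11 of 13 mitochondrial members had a positive log2 fold change with a median of 0.40, and 33 of 84 nuclear members with a median of -0.05, where the median of all genes was -0.04. In CD8 Treg against CD4 Treg, 11 of 13 mitochondrial members were positive with a median of 0.49, and 58 of 84 nuclear members with a median of 0.12, where the median of all genes was 0.02. In CD4 Treg against CD49lo, 5 of 13 mitochondrial members were positive with a median of -0.09, and 26 of 84 nuclear members with a median of -0.16, where the median of all genes was -0.03. Without TMM scaling the median of all genes in CD8 Treg against CD49lo moved to -0.16, with 0.26 for mitochondrial and -0.17 for nuclear members. Single libraries moved these medians. Without CD49lo replicate 1 the mitochondrial median in CD8 Treg against CD49lo was 0.11, without CD49lo replicate 2 the nuclear one was 0.02, and without CD4 Treg replicate 1 the mitochondrial median in CD8 Treg against CD4 Treg was 0.14. The mitochondrial median in CD4 Treg against CD49lo was 0.18 and -0.24 without CD4 Treg replicates 1 and 2, and -0.36 and 0.05 without CD49lo replicates 1 and 2, the last over the 11 genes then tested.

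**Figure D3:**
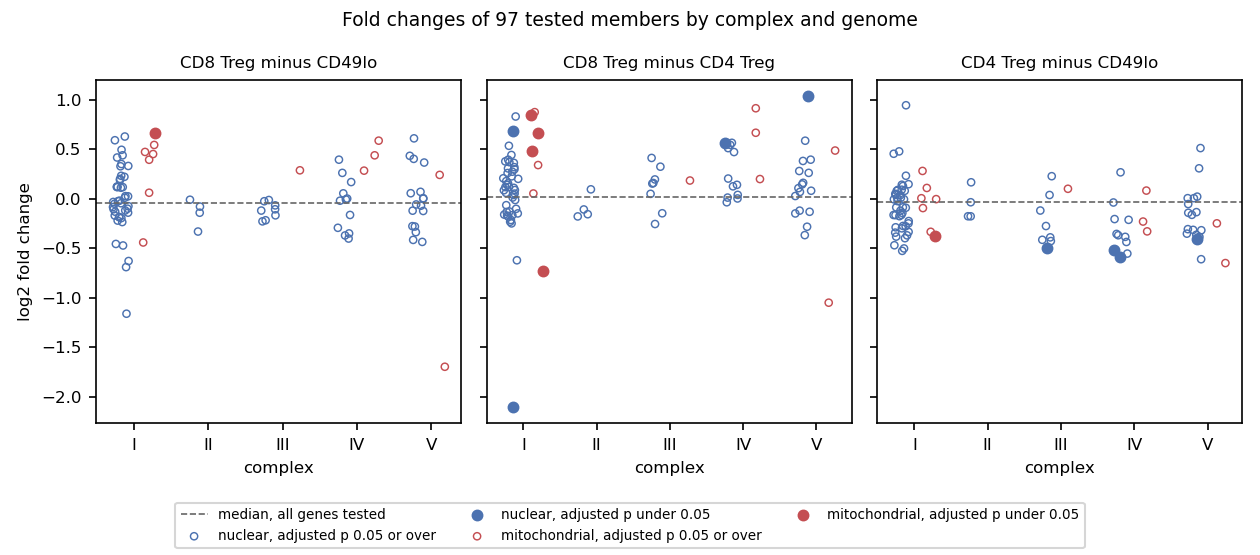
Log2 fold change (vertical axis) of the 97 tested members by complex (horizontal axis), nuclear in blue and mitochondrial in red, for the 3 comparisons; filled points have an adjusted p under 0.05 and the dashed line is the median of all genes. The 11 tested nuclear subunits of complex IV all lie below 0 in CD4 Treg minus CD49lo, and Cox7a2l lies above it.

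The summed mitochondrial RPKM was 12669.7 in CD8 Treg, 9764 and 11703 in CD4 Treg, and 10932 and 10772 in CD49lo. The summed nuclear RPKM was 5770.5 in CD8 Treg, 5856 and 5696 in CD4 Treg, and 6394 and 6888 in CD49lo. CD8 Treg was highest in the mitochondrial sum, and the 3 Treg libraries were all below the CD49lo libraries in the nuclear sum. The log2 ratio of the sums was 1.13 in CD8 Treg, 0.74 and 1.04 in CD4 Treg, and 0.77 and 0.65 in CD49lo. It was higher in CD8 Treg than in CD49lo by 0.43 and than in CD4 Treg by 0.25, and higher in CD4 Treg than in CD49lo by 0.18, against a pooled SD between replicates of 0.16. The CD4 Treg and CD49lo libraries overlap in this ratio. As a difference of mean log2 values in place of sums, the library values were 2.36 in CD8 Treg, 1.99 and 2.39 in CD4 Treg, and 1.998 and 2.31 in CD49lo. CD8 Treg was then not the highest library, and its difference from CD49lo was 0.21, against a pooled SD between replicates of 0.25. That version weighs the low, uncertain mitochondrial genes like the others. In the remaining versions, all of sums, CD8 Treg was highest and CD4 Treg replicate 2 next. The values were 1.37 and 1.26 for recovered reads and 1.20 and 1.11 for structural subunits only. They were 0.42 and 0.27 with mt-Nd1, mt-Nd2, mt-Nd5, mt-Nd6 and mt-Cytb as the mitochondrial members, and 1.11 and 0.99 without mt-Nd6.

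**Figure D4:**
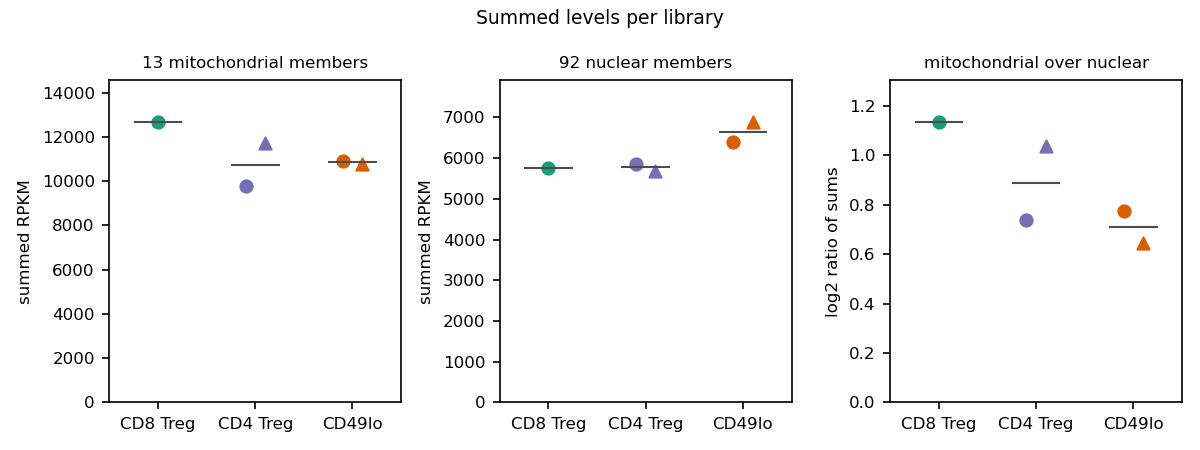
Summed RPKM of the 13 mitochondrial members, summed RPKM of the 92 nuclear members and the log2 ratio of the sums (vertical axes, from 0) by group, with 1 point per library, circles for replicate 1, triangles for replicate 2 and a line at the group mean. The ratio of sums is highest in CD8 Treg at 1.13, an order that does not hold for means of log2 values, and CD4 Treg replicate 1 at 0.74 lies between the CD49lo libraries.

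Complex I contributed 43 nuclear members, none called against CD49lo in either comparison. Of all genes tested, 5.16% were called in CD8 Treg against CD49lo and 22.1% in CD4 Treg against CD49lo. Its 36 subunits ranged in mean RPKM over the 5 libraries from 0.930 for Ndufb2 to 267 for Ndufa6. Ndufa6, which sits near the quinone site, had 251 RPKM in CD8 Treg, 282 and 239 RPKM in CD4 Treg, and 267 and 294 RPKM in CD49lo, and the groups overlap. In CD4 Treg against CD49lo the subunits had a median log2 fold change of -0.08, with 14 positive and 22 negative, and at an unadjusted p under 0.05 there were 1 higher and 2 lower.

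Complex II has 4 subunits, all nuclear, and none was called in a comparison, where between 5.16% and 22.1% of all genes tested were called. Sdha, the flavoprotein that oxidises succinate, had 75.2 RPKM in CD8 Treg, 85.4 and 98.5 RPKM in CD4 Treg, and 86.1 and 80.2 RPKM in CD49lo. Sdhb, the iron-sulfur subunit, had 63.6 RPKM in CD8 Treg, 72.1 and 75.8 RPKM in CD4 Treg, and 86.9 and 68.4 RPKM in CD49lo. The membrane anchor Sdhc had 15.4 RPKM in CD8 Treg, 16.1 and 14.95 RPKM in CD4 Treg, and 16.5 and 19.5 RPKM in CD49lo, and the other anchor, Sdhd, had 24.6 RPKM in CD8 Treg, 27.1 and 32.3 RPKM in CD4 Treg, and 34.5 and 33.6 RPKM in CD49lo. In RPKM as deposited CD8 Treg was the lowest library for all but Sdhc. Divided by the TMM factors, Sdha was 80.5 in CD8 Treg against 77.4 in CD49lo replicate 2, and Sdhb 68.1 against 65.9, so that Sdhd alone was lowest in CD8 Treg. Log2 fold changes over the 4 genes lay between -0.33 and 0.17 in the 3 comparisons.

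Complex III contributed 8 nuclear subunits. Uqcrfs1 was the called one, in CD4 Treg against CD49lo, which is 12.5%, against 22.1% of all genes tested. Uqcrh, the hinge protein at cytochrome c1, was the most abundant, with 164 RPKM in CD8 Treg, 168 and 151 RPKM in CD4 Treg, and 179 and 215 RPKM in CD49lo. In CD4 Treg against CD49lo, 6 of 8 were negative with a median log2 fold change of -0.33, and in CD8 Treg against CD49lo all 8 were negative with a median of -0.11. The latter direction held for all 8 against CD49lo replicate 2 only. On RPKM divided by the TMM factors, CD8 Treg was above replicate 1 for Uqcr11 (59.5 against 52.5) and Uqcrq (67.4 against 62.5). It was also above for Uqcrc2 (45.1 against 43.8) and Uqcrh (176.1 against 175.6), and below for Uqcrb, Uqcrc1, Uqcrfs1 and Uqcr10.

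The nuclear subunits of complex IV shared a direction in CD4 Treg against CD49lo. All 11 tested were negative in CD4 Treg against CD49lo, with a median log2 fold change of -0.38. Of the 11, 2 were called, which is 18.2%, against 22.1% of all genes tested, of which 12.7% were lower. An unadjusted p under 0.05 was found for 8 of the 11, and with a lower value for 18.6% of all genes. For 10 of the 11, both CD4 Treg libraries were below both CD49lo libraries, which is 90.9%, against 33.7% of all genes tested, and 26.5% of all genes were above in both. On RPKM divided by the TMM factors this held for 9 of 11, against 32.2% of all genes. Without CD49lo replicate 2, 10 of 11 were negative with a median of -0.30, and without replicate 1 all 11 were, with a median of -0.49. Cox4i1, the regulatory subunit, was the one that overlapped, with 254 RPKM in CD8 Treg, 233 and 242 RPKM in CD4 Treg, and 229 and 269.8 RPKM in CD49lo. Cox5a had 58.9 RPKM in CD8 Treg, 42.3 and 46.6 RPKM in CD4 Treg, and 64.4 and 64.9 RPKM in CD49lo, with an adjusted p of 0.0564 in CD4 Treg against CD49lo. Cox7a2l, which joins complexes III and IV and is not a subunit, had 185 RPKM in CD8 Treg, 165 and 203 RPKM in CD4 Treg, and 153 and 157 RPKM in CD49lo.

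Tissue-restricted paralogues of complex IV subunits were at or near 0. Cox8b, Cox8c and Ndufa4l2 had 0 reads in all libraries, where a count of 0 allows up to 0.359 to 0.551 RPM (reads scaled to the library without gene length), for counting error only. Cox4i2, Cox6a2, Cox6b2, Cox7b2 and Cox7a1 had between 0 and 8 reads in a library and were not tested. Cox7a1, the heart and muscle form, had 6 reads in CD8 Treg and 0 in the other libraries. The common forms were abundant, with Cox6a1 at 118 RPKM in CD8 Treg, 89.4 and 94.0 RPKM in CD4 Treg, and 102 and 115 RPKM in CD49lo. Cox7b had 107 RPKM in CD8 Treg, 131 and 107 RPKM in CD4 Treg, and 142 and 172 RPKM in CD49lo. Ndufa4, now counted with complex IV, had 79.0 RPKM in CD8 Treg, 68.2 and 49.7 RPKM in CD4 Treg, and 77.8 and 97.5 RPKM in CD49lo.

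Complex V contributed 17 nuclear members, with Atp5h the most abundant and the called one in CD4 Treg against CD49lo. That is 5.88%, against 22.1% of all genes tested. The F1 head, which carries the catalytic sites, and its stalk were grouped with Atp5o, a subunit of the stator. These 6 nuclear subunits had a median log2 fold change of -0.02 in CD4 Treg against CD49lo. The 9 other subunits, of the membrane part and stator, had a median of -0.32, and medians with Atp5o moved to them were not computed. Atp5d, a stalk subunit, had 83.4 RPKM in CD8 Treg, 85.7 and 116 RPKM in CD4 Treg, and 77.3 and 65.0 RPKM in CD49lo, with an adjusted p of 0.0541 in that comparison. Atp5d was called higher in CD4 Treg with limma-voom (adjusted p = 0.0291) and with limma on median-of-ratios size factors (adjusted p = 0.0492). The paralogues Atp5g1, Atp5g2 and Atp5g3 encode the same proton-carrying ring subunit. Atp5g1 had 6.91 RPKM in CD8 Treg, 4.99 and 6.28 RPKM in CD4 Treg, and 7.62 and 6.82 RPKM in CD49lo. Atp5g2, which shares 38.3% of its 50-base words with other transcripts, had 75.9 RPKM in CD8 Treg, 47.5 and 62.0 RPKM in CD4 Treg, and 55.0 and 53.8 RPKM in CD49lo, and Atp5g3 had 47.8 RPKM in CD8 Treg, 57.6 and 54.4 RPKM in CD4 Treg, and 75.3 and 67.2 RPKM in CD49lo. Atp5g2 was highest and Atp5g3 lowest in CD8 Treg, and neither was called.

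Over all tested members in RPKM as deposited, the CD8 Treg library lay above all 4 others for 14 of 97 and below them for 24 of 97, against 15.3% and 30.7% of all genes tested. The order depends on the scaling: on RPKM divided by the TMM factors, 27 of 97 lay above and 14 below, against 21.9% and 22.3% of all genes. Of the 13 mitochondrial members 4 lay above in RPKM as deposited and 9 after scaling, among them mt-Cytb and mt-Co1.

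Promoters of the 4 nuclear members called lower in CD4 Treg are shown because these genes were called in the same direction. They are given as the 250 bases before the start in RefSeq (GRCm38.p6). Capitals mark matches on either strand to the motif letters of NRF1 (GCGCA, any base, GCGC), ETS factors (CCGGAAG), YY1 (AAGATGGCG) or ERR (TCAAGGTCA). These factors are known regulators of respiratory genes.
Atp5h, chr11:115419920-115420169, minus strand: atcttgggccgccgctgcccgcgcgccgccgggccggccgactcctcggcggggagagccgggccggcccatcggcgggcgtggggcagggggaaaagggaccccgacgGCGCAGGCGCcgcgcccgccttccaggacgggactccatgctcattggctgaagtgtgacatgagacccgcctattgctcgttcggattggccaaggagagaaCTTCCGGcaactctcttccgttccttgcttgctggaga
Cox8a, chr19:7217617-7217866, minus strand: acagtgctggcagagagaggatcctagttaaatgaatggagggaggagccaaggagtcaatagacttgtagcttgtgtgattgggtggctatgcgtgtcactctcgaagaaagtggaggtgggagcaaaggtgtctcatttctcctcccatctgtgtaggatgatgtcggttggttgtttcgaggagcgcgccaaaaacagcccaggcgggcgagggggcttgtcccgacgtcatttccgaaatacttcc
Cox7c, chr13:86046796-86047045, minus strand: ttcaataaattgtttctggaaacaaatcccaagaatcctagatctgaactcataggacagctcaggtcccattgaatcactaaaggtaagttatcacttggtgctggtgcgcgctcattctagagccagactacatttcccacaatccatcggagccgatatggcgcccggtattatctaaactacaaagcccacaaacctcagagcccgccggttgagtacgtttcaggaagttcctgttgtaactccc
Uqcrfs1, chr13:30545317-30545566, minus strand: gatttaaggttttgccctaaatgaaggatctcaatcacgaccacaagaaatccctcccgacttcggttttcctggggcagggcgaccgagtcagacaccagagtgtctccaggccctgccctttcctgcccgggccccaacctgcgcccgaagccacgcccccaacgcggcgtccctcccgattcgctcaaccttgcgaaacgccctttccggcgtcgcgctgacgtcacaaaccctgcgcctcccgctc

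The Atp5h stretch held 1 NRF1 and 1 ETS match, and the other stretches held none of the 4 motifs, although Cox8a had 2 ETS matches in the 50 bases after its start. Of 73 nuclear members matched to a promoter of 300 bases, 24.7% held the NRF1 letters, against 4.78% of 27025 gene promoters and 6.60% of the 17492 of protein-coding genes. ETS letters were in 21.9% of member promoters, against 11.9% of those of protein-coding genes, and YY1 letters in 8.22%, against 1.94%. A match is a description of the letters and not a bound site.

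Genes outside the rule that act on these complexes were listed separately. Atpif1, the inhibitor of complex V, had 48.4 RPKM in CD8 Treg, 80.4 and 67.8 RPKM in CD4 Treg, and 126 and 102 RPKM in CD49lo, and fell by 1.08 ± 0.20 in CD8 Treg against CD49lo (adjusted p = 0.0155). Cox20, a chaperone of mt-Co2, had 18.2 RPKM in CD8 Treg, 45.2 and 38.4 RPKM in CD4 Treg, and 44.1 and 46.4 RPKM in CD49lo, and fell by 1.16 ± 0.25 (adjusted p = 0.031). Sdhaf1, an assembly factor of complex II, had 10.6 RPKM in CD8 Treg, 24.0 and 24.9 RPKM in CD4 Treg, and 9.33 and 8.75 RPKM in CD49lo, and was higher in CD4 Treg than in CD49lo by 1.41 ± 0.17 (adjusted p = 0.000382). In the same comparison Acad9, of complex I assembly, had a log2 fold change of 0.86, and Uqcc2, of complex III assembly, one of -0.74. Atpif1 was called there too, at -0.59. Of 76 tested mitochondrial ribosome proteins, 1 was called higher and 4 lower in CD4 Treg against CD49lo, which is 6.58%, against the 22.1% of all genes.

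The length used for RPKM exceeded the longest coding transcript by 7.12 times for Ndufb7, 4.12 times for Cox6c, 4.03 times for Atp5e and 2.90 times for Ndufa11, which lowers their levels per length but not their fold changes. Of the 40 nuclear members under 1000 bases with over 1 RPKM in every library, 28 were higher in CD49lo replicate 2 than in replicate 1, with a median log2 difference of 0.20, against 0.09 for all 521 such protein-coding genes. In unscaled CD4 Treg over CD49lo, these 521 short genes had a median log2 difference of -0.17, against -0.00366 for the 8368 longer ones, and the members had -0.23 when short and -0.17 when longer. The part of gene length in the lower values of complex IV subunits was not tested.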

How the data were processed

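The authors deposited 1 table of RPKM per gene for 5 libraries; per the submitters' processing notes CASAVA, STAR and mm10 were used, and the counter, annotation and strandedness are not given in the sources used here. Multiplied by gene length, 100% of values came out as whole reads of a fixed size within 0.02, so reads were recovered and used for library totals, the filter, TMM scaling (own code) and the prior.

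Genes with 10 reads at median depth in at least 1 library and 15 reads in total were tested on log2(scaled RPKM + 0.5) using limma 3.58.1 (R 4.3.3), which understates changes of low genes. The fit used all 5 libraries in 3 groups (2 residual degrees of freedom), empirical Bayes with a trend on mean log2 RPM, and Benjamini-Hochberg over all 13298 genes. The lone CD8 Treg library has no spread of its own and takes that of the pairs. The script was first tested on simulated data.

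A second variance prior, without zero-variance genes, was written after the first had called no gene without a CD49lo library. It stood for a time in place of the reported fit and was then set back to an alternative, since the fit had been specified with the usual prior; the 14 calls on members in the 3 comparisons were the same 1, 8 and 5 in number under both. Members, lists and named genes were chosen with earlier results of these data known, and the printed promoters, the length split, the chromosome 1 block, Cox7a2l, Cox5a, Atp5d and 2 further versions of the ratio after values were seen. Shared sequence was measured with 50-base words against GENCODE M21, in which all 105 members occur. Pseudocounts, filters, scalings, limma-voom, single libraries left out and a replicate block were tried as alternatives.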

Additional observations from a re-analysis of the deposited data

How the results depend on the processing

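No direction of a called member reversed under an alternative. Counts of members called moved as follows. In CD8 Treg against CD49lo (1 in the reported fit) they were 0 with a pseudocount of 1 and with a prior on mean log2 RPKM, 2 with limma-voom, and 0 without each single library; without scaling the 1 call was Atp5j, lower, and with no filter and with a filter of 1 RPKM it was Cox7a1, higher, with 6 reads in CD8 Treg and 0 elsewhere. Members with CD8 Treg above all 4 other libraries numbered 27, and below them 14, on TMM-scaled RPKM, against 14 and 24 as deposited. In CD8 Treg against CD4 Treg (8) they were 2 without a filter, 5 with a filter of 1 RPKM, 5 without scaling, 5 with the RPKM prior, and 0 to 2 without single libraries. In CD4 Treg against CD49lo (5) they were 1 without a filter (Cox6a2), 7 without scaling and 6 with median-of-ratios size factors. They were 4 with a pseudocount of 1, with a filter of 1 RPKM and with the RPKM prior. With limma-voom they were 5. Atp5d, not called in the reported fit, was called higher in CD4 Treg with limma-voom, with median-of-ratios size factors and in both fits of 4 libraries. Fits without single libraries are described above. With zero-variance genes left out of the prior, an alternative chosen after seeing the data, the counts with all libraries stayed at 1, 8 and 5, and all genes called were 715, 2241 and 2951, against 686, 2223 and 2941; leaving out single libraries then gave 3 to 5, 5 to 13 and 2 to 22. Without CD49lo replicate 1, 275 of 12894 genes had zero variance, and without replicate 2, 324 of 13002, and the second prior called 1244, 3161 and 3223 genes and 971, 2992 and 2926 genes there. Deviations of same-numbered replicates had a correlation of -0.03 over 10760 genes, which cannot decide whether these libraries shared an animal or a sort. With the replicate block 17 members were called (17 also under the second prior), against 7 in the same 4 libraries without it. The blocked fit had 1 residual degree of freedom and an infinite weight on the prior. Over all genes it called 3568 of 12014, against 3126 without the block. The log2 ratio difference between CD8 Treg and CD49lo was 0.21 as a mean of log2 values. Over all genes, called counts for CD8 Treg against CD49lo, CD8 Treg against CD4 Treg and CD4 Treg against CD49lo were 452, 1072 and 685 without a filter, 285, 1617 and 2268 with a filter of 1 RPKM, 358, 1719 and 2481 with the RPKM prior, 116, 809 and 1286 without CD4 Treg replicate 1, 139, 857 and 1391 without replicate 2, and 0 without either CD49lo library. Depth limits members with few reads, such as Ndufaf3 with 14 reads in CD8 Treg.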
